A study of Mus musculus with 12 samples.

Results

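This account follows 8 genes that lie outside the classical ER stress classes and were selected on their much higher level in natural regulatory T cells (nTreg) labelled KO than in those labelled WT: Vegfa, Angptl6, Soat2, Chchd10, Clic4, Cks1b, AI662270 and C630004H02Rik. They are 8 of the 23337 gene symbols counted, and all 8 were among the 12038 genes that passed the filter on low counts. Because the nTreg values chose them, those values are described and not tested, and the tests are read in the induced regulatory T cells (iTreg). The rule of choice did not use the iTreg libraries, but the choice was made with earlier results of these data known. The tests also take their spread from all 12 libraries. All animals were C57BL/6 mice aged 8 weeks. nTreg came from spleen and lymph nodes and were sorted as CD4+GFP+ cells, while iTreg were CD4 T cells that had been kept with IL2 and TGFbeta for 5 days before their GFP-positive fraction was taken. Each cell type had 3 libraries of the genotype Hrd1 +/flox, FoxP3-cre+-GFP (the WT label) and 3 of the genotype Hrd1 flox/flox, FoxP3-cre+-GFP (the KO label), 12 libraries in 4 groups. Cre under FoxP3 control is thus present in every group, and the WT label is a heterozygous floxed control. When FoxP3, and with it Cre, came on in the iTreg cultures was not tested. Nothing in the labels says that replicates were separate animals. The p-values therefore cover only how far these libraries scatter, which may in part be technical.

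Hrd1 is a ubiquitin ligase of the ER membrane that hands misfolded proteins to the proteasome. When misfolded proteins build up, 3 sensors act: IRE1 splices the mRNA of the factor XBP1, ATF6 is cut into a factor, and PERK slows translation while ATF4 and CHOP are made. Most known targets of these factors are ER chaperones, folding enzymes, amino acid enzymes and transporters. The 8 genes belong to other families. Vegfa encodes a secreted growth factor of blood vessels that hypoxia induces and that ATF4 is also known to induce. Angptl6 encodes a secreted angiopoietin-like factor best known from liver. Soat2 encodes an ER enzyme that esterifies cholesterol in liver and intestine. Chchd10 encodes a small protein of the mitochondrial intermembrane space. Clic4 encodes a member of the chloride intracellular channel family, and Cks1b a small protein that binds cyclin-dependent kinases and helps the SCF-SKP2 ligase mark the inhibitor p27. AI662270 is a long non-coding RNA gene. C630004H02Rik is listed as Hid1 in current annotation, a peripheral Golgi protein that takes part in making secretory granules.

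The libraries held 6763458 to 15462894 counts. The 6 Treg markers, Foxp3 among them, summed to 4338 to 4891 CPM in nTreg and 3797 to 5087 CPM in iTreg, with no marker at 0. CPM here are TMM-normalised (each library's count of a gene as a share of its scaled total). Myeloid markers were a variable minor signal in nTreg (10 genes, 52.0 to 203 CPM in WT and 41.3 to 439 CPM in KO, highest in the libraries numbered 2) and were at 3.65 to 6.02 CPM in iTreg. Xist, the RNA that silences an X chromosome in female cells, was counted 7839 times in nTreg WT replicate 3, 4479 times in nTreg KO replicate 3 and 26914 times in iTreg WT replicate 2, and 0 to 2 times in the other 9 libraries. Replicates of these 3 groups thus differ in sex, so not all libraries of such a group came from 1 animal. The main counts and calls are also given without the 3 libraries. The targeted gene, Syvn1 (Hrd1), stood at 73.7, 87.2 and 75.5 CPM in nTreg WT and at 146, 137 and 130 CPM in nTreg KO. In iTreg it stood at 61.6, 72.2 and 101 CPM (WT) and 54.6, 73.1 and 63.1 CPM (KO). Its level thus goes against the KO label in nTreg (adjusted p = 0.023, edgeR; 0.056 to 0.12 when any 1 of the 6 libraries is left out, 0.17 without both nTreg libraries numbered 2 and 3e-04 to 0.31 over 16 alternatives), and since counts cover the whole gene they do not check the deletion, so every direction below is that of the libraries labelled KO.

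In mm10, per the GENCODE M21 annotation, Vegfa lies at chr17:46016993-46032369 (minus strand), Angptl6 at chr9:20873808-20879727 (minus) and Soat2 at chr15:102150526-102163469 (plus). Chchd10 lies at chr10:75933130-75937747 (plus), Clic4 at chr4:135213969-135272814 (minus) and Cks1b at chr3:89415472-89418383 (minus). AI662270 (chr11:83223576-83226604, plus) and C630004H02Rik (chr11:115347707-115367756, minus) share a chromosome but are far apart. RefSeq promoter windows (build GRCm38.p6, 250 bases before to 50 bases after a start site) were at hand for 5 of the 8, with a pair of windows for Vegfa, 6 in all. Both strands were searched for letters that known factors of stress and cell cycle bind. The C/EBP-ATF composite element, searched as TTNCATCA, is the class of site that ATF4 binds, and it was found in 3.97% of 32841 windows of that length. Of the 6 windows only that of Chchd10 held it, in 2 copies at positions -85 and -72, and 23 of all windows (0.07%) held 2 or more. The Cks1b window held the CCAAT box, a site common in promoters of cell cycle genes, in 4 copies at -217, -177, -89 and -41, and 1.06% of windows held 4 or more. Both windows are shown since they carry these repeated matches, which were singled out after the search. Each runs 5′ to 3′ on the gene's strand, Chchd10 at chr10:75932880-75933179 (plus strand) and Cks1b at chr3:89418242-89418541 (minus strand), with the matches in capitals (in Chchd10 they are the reverse complement of the searched letters).
Chchd10: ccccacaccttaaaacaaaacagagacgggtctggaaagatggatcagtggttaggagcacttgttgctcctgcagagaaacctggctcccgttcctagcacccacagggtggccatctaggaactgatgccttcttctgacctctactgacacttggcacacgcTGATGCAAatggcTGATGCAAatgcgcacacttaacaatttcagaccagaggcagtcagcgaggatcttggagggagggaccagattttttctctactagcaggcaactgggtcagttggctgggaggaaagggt
Cks1b: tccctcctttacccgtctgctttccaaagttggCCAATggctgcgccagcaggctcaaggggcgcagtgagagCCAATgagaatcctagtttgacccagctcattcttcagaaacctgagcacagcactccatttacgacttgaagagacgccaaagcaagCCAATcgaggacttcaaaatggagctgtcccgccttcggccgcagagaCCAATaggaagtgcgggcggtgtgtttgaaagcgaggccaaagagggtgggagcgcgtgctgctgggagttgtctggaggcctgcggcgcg
The UPRE letters TGACGTGG, the class of site that XBP1 and ATF6 bind, were in 0.676% of windows and, of these 6, only in the second Vegfa window, which begins inside the gene (chr17:46025114-46025413, minus strand). The CRE letters TGACGTCA (1.79% of windows), the ERSE (CCAAT and, 9 bases on, CCACG; 0.119%) and the E2F letters TTTCGCGC or TTTGGCGC (0.813%) were in none of the 6. The short HIF letters ACGTG or GCGTG, which overlap the UPRE and are often part of it, were in 4 of 6 windows against 43.8% of all, and CCAAT, which is also part of the ERSE, in 4 of 6 against 37.4%. Such matches describe the letters of these windows only.

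The secreted factors are described first. Vegfa was counted 6, 2 and 4 times in the nTreg WT libraries, or 0.886, 0.283 and 0.372 CPM, and 222, 621 and 327 times in nTreg KO, or 25.7, 39.1 and 35.3 CPM. The ranges were far apart, and Vegfa went from a level near absence to a moderate one. The log2 fold change was 6.06 (SE 0.75), 66.8-fold (95% interval 21.4 to 209) on a WT total of 12 reads, and ranked 5 of the 12038 genes. In iTreg, Vegfa was already high with the WT label, at 149, 145 and 41.8 CPM, and stood at 96.2, 164 and 60.7 CPM with the KO label. Both iTreg groups overlapped widely, with the library numbered 3 the lowest in each, and both lay above every nTreg library. Per kilobase of exon, the mean Vegfa level exceeded 4.05% of 11891 genes in nTreg WT, 48.9% in nTreg KO, 80.1% in iTreg WT and 79.2% in iTreg KO. In a bulk sample, fewer cells that make an RNA and less RNA per cell cannot be told apart.

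Angptl6 was at 3.84, 1.98 and 1.21 CPM in nTreg WT and at 21.4, 30.4 and 23.5 CPM in nTreg KO, a log2 fold change of 3.47 (SE 0.61). All KO libraries lay well above all WT libraries. In iTreg the WT libraries were at 4.13, 3.31 and 2.35 CPM, within the range of nTreg WT save for the highest library. The KO libraries were at 10.1, 22.4 and 3.34 CPM. The 3 iTreg KO libraries thus ran from a WT-like level to that of nTreg KO, and the third overlapped the WT range. On the opposite strand Angptl6 shares 265 exonic bases with A230050P20Rik, and the strand setting of the counting is not given in the sources used here, so reads of that stretch cannot be assigned. A230050P20Rik was at 53.9 ± 6.81 CPM in nTreg WT and 62.7 ± 11.1 CPM in nTreg KO (SD, n = 3), and did not pass (log2 fold change 0.22, adjusted p = 0.64, edgeR).

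Soat2, the sterol esterifying enzyme, had a level of its own in each group. It was at 3.84, 1.70 and 1.77 CPM in nTreg WT and at 28.9, 31.7 and 23.4 CPM in nTreg KO (log2 fold change 3.55, SE 0.33). In iTreg the WT libraries had 6.83, 3.99 and 6.24 CPM and the KO libraries 12.8, 14.8 and 9.69 CPM. No neighbouring pair of groups overlapped in the order nTreg WT, iTreg WT, iTreg KO, nTreg KO, although the first 2 nearly met at 3.84 and 3.99 CPM.

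Chchd10, the mitochondrial protein, was the most abundant of the 8 per kilobase of exon in nTreg KO, above 97.7% of genes. Its values were 31.3, 27.3 and 27.6 CPM in nTreg WT and 177, 201 and 167 CPM in nTreg KO, a log2 fold change of 2.66 (SE 0.21). In iTreg the WT libraries were tight at 85.2, 93.3 and 86.5 CPM, and the KO libraries spread over 135, 216 and 108 CPM, all above WT. The KO ranges of both cell types overlapped. On the opposite strand Chchd10 shares 155 exonic bases with Mmp11, a matrix metalloproteinase gene, and 25 with Gm867, which has no row in the count files. Mmp11 was also higher in nTreg KO, at 24.3, 32.1 and 26.0 CPM against 8.71, 9.34 and 8.47 CPM in WT (log2 fold change 1.64, SE 0.19, adjusted p = 0.00044, edgeR). In iTreg, where Chchd10 was again higher with the KO label, the WT libraries had 22.1, 16.6 and 15.4 CPM of Mmp11 and the KO libraries 14.8, 17.5 and 12 CPM, which overlap. Whether reads of the shared bases add to either gene was not tested.

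Clic4 and Cks1b had their highest levels in iTreg with either label. Clic4 was at 37.2, 32.8 and 39.2 CPM in nTreg WT and 85.4, 94.6 and 146 CPM in nTreg KO (log2 fold change 1.57, SE 0.18), then at 164, 188 and 161 CPM in iTreg WT and 209, 190 and 192 CPM in iTreg KO. Its 4 groups did not overlap, but iTreg WT and KO were only 188 and 190 CPM apart at their nearest libraries. Cks1b was at 9.16, 7.08 and 8.47 CPM in nTreg WT and 25.4, 20.7 and 19.5 CPM in nTreg KO (log2 fold change 1.40, SE 0.14). Its iTreg levels were 102, 114 and 119 CPM (WT) and 109, 119 and 104 CPM (KO), so that the labels overlapped. All nTreg KO libraries lay between nTreg WT and iTreg, nearer to nTreg WT.

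The non-coding AI662270 and the Golgi gene C630004H02Rik reached like levels in KO libraries of both cell types. AI662270 was at 82.3, 78.4 and 88.0 CPM in nTreg WT and 218, 262 and 235 CPM in nTreg KO (log2 fold change 1.53, SE 0.11). It was at 140, 143 and 172 CPM in iTreg WT and 249, 246 and 227 CPM in iTreg KO, and the 3 iTreg KO values fell inside the nTreg KO range. C630004H02Rik was at 16.4, 13.4 and 13.0 CPM in nTreg WT, 28.9, 34.9 and 27.4 CPM in nTreg KO (log2 fold change 1.09, SE 0.22), 13.7, 8.81 and 10 CPM in iTreg WT and 29.9, 32.2 and 19.3 CPM in iTreg KO. The WT groups overlapped with each other, and so did the KO groups, while no KO library overlapped a WT library. AI662270 shares 491 bases of exon, on its own strand, with the pseudogene Gm11427, which has no row in the files, so its count may hold reads of either. Its nearest neighbour with a row, Slfn3, did not pass in nTreg (log2 fold change -0.08, adjusted p = 0.93, edgeR).

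**Figure D1:**
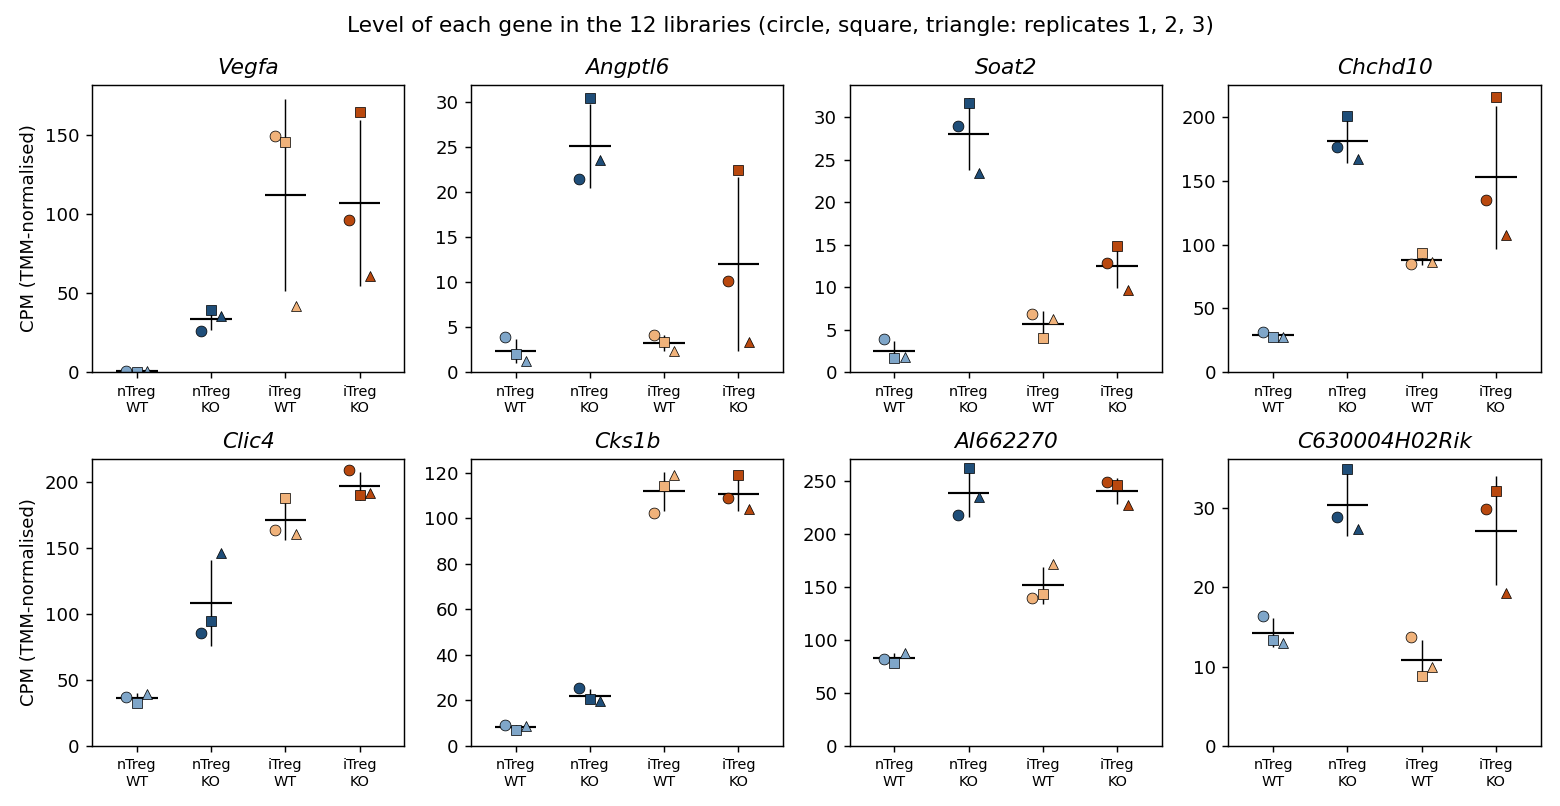
Level of each of the 8 genes (y axis, TMM-normalised CPM from 0, own scale per gene) in the 4 groups (x axis), with 1 point per library (circle, square and triangle for replicates 1, 2 and 3), the group mean as a horizontal line and ± 1 SD as a vertical line (n = 3). Vegfa and Cks1b are as high in iTreg WT as in iTreg KO, while AI662270 and C630004H02Rik reach like levels in nTreg KO and iTreg KO.

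All 8 genes had nTreg KO libraries above all nTreg WT libraries, as 15.7% of tested genes did, and since this contrast chose them nothing is read from that count. Their ranks by fold change in nTreg ran from 5 (Vegfa), 27 (Soat2), 29 (Angptl6) and 52 (Chchd10) to 180 (Clic4), 192 (AI662270), 218 (Cks1b) and 361 (C630004H02Rik). The set therefore spans changes of 2.13-fold to 66.8-fold. Of all genes tested, 2.18% were called higher in nTreg KO and 0.341% lower, at an adjusted p under 0.05.

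The iTreg comparison asks whether the same genes differ with the KO label in Treg made in culture. AI662270 and C630004H02Rik rose there, by 1.59-fold and 2.49-fold. The other 6 did not pass, and Soat2, Chchd10 and Angptl6 stood at 2.18-fold, 1.73-fold and 3.61-fold with the KO label, while Clic4, Cks1b and Vegfa were close to no change. Of the 8 genes 2 passed higher and 0 lower in edgeR's quasi-likelihood test, against 0.166% of all genes higher. At an unadjusted p under 0.05, 5 were higher and 0 lower, against 3.83% of all genes higher. The 3 KO libraries lay above the 3 WT libraries for 5 of the 8 (Soat2, Chchd10, Clic4, AI662270 and C630004H02Rik), against 4.68% of all genes, and the median log2 fold change was 0.73 against -0.013 over all genes.

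AI662270 had a log2 fold change of 0.67 (SE 0.11, adjusted p = 0.035, edgeR; higher in 3 of 3 libraries) and C630004H02Rik one of 1.32 (SE 0.22, adjusted p = 0.043, edgeR; higher in 3 of 3). With the replicate number as a block, 2 of 8 passed, the same pair (adjusted p = 0.017 and 0.012), against 0.673% of all genes. Both calls were lost without iTreg WT replicate 1 or 2 or KO replicate 1 or 2, that of C630004H02Rik also without WT replicate 3 (adjusted p from 0.071 to 0.25 for these), with the 6 iTreg libraries alone (0.54 and 0.66), without both nTreg libraries numbered 2 (0.12 and 0.13) and without the 3 libraries high in Xist (0.86 for both). Over all 16 alternatives the log2 fold change stayed between 0.61 and 0.83 for AI662270 and between 1.17 and 1.52 for C630004H02Rik.

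For the 6 genes that missed the threshold the intervals show what the iTreg libraries allow. Soat2 was 2.18-fold higher in the KO libraries (log2 SE 0.29, 95% interval 1.41-fold to 3.38-fold, adjusted p = 0.27, edgeR; 0.028 with DESeq2), and Chchd10 had a log2 fold change of 0.79 (SE 0.20, interval 0.36 to 1.22, adjusted p = 0.25, edgeR). Angptl6 was at 1.85 (SE 0.56, interval 0.64 to 3.06, adjusted p = 0.39, edgeR). These unadjusted intervals exclude 0, but the adjustment over 12038 genes does not leave a call, except that Chchd10 (adjusted p = 0.025) and Angptl6 (0.038) passed without iTreg KO replicate 3, and Chchd10 with DESeq2 (0.032). Over 16 alternatives the adjusted p ran from 0.028 to 1 for Soat2, 0.025 to 1 for Chchd10 and 0.038 to 1 for Angptl6. Angptl6 moved to 1.02 without iTreg KO replicate 2 and to 2.30 without replicate 3. The interval of Vegfa ran from 0.505-fold to 1.80-fold, and that of Cks1b from 0.832-fold to 1.18-fold. Clic4 was at 0.21 (SE 0.17, interval 0.898-fold to 1.48-fold, adjusted p = 0.84, edgeR).

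**Figure D2:**
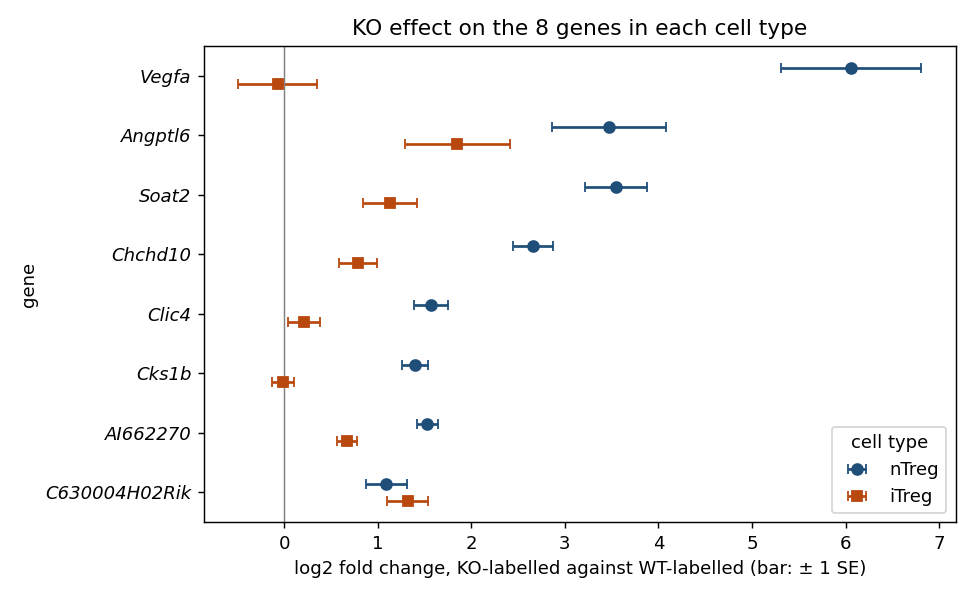
Log2 fold change of KO-labelled against WT-labelled libraries (x axis, with ± 1 SE) for each gene (y axis) in nTreg (circles) and iTreg (squares), n = 3 libraries per group. Vegfa goes from 6.06 in nTreg to -0.07 in iTreg, and C630004H02Rik is at 1.09 and 1.32.

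Subtracting the nTreg effect from the iTreg effect gives a value that holds the contrast that chose the genes and is given without a test. It was -6.13 (SE 0.90) for Vegfa, -2.42 (SE 0.43) for Soat2, -1.87 (SE 0.29) for Chchd10, -1.62 (SE 0.81) for Angptl6, -1.41 (SE 0.18) for Cks1b, -1.37 (SE 0.24) for Clic4 and -0.86 (SE 0.15) for AI662270. C630004H02Rik alone had a positive value, 0.22 (SE 0.31). A smaller effect in iTreg is what a choice by the nTreg effect favours. The iTreg WT libraries compared with nTreg WT were higher by 7.80 for Vegfa, 3.76 for Cks1b, 2.23 for Clic4, 1.62 for Chchd10, 1.25 for Soat2 and 0.87 for AI662270 on the log2 scale. Angptl6 (0.53, SE 0.62) and C630004H02Rik (-0.39, SE 0.22) were near the same level in WT cells of both kinds.

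Relatives of the genes were set beside them to see whether whole families differed. Vegfb, a VEGF with a milder role in vessel growth, was at 8.14 ± 1.99 CPM in nTreg WT and 13.2 ± 1.52 CPM in nTreg KO (SD, n = 3), a log2 fold change of 0.70 that did not pass (SE 0.27, adjusted p = 0.27, edgeR; 0.049 with the replicate block). Angptl4, an inhibitor of lipoprotein lipase, was at 3.38 ± 0.481 and 4.73 ± 1.66 CPM (0.50, adjusted p = 0.50, edgeR). Soat1, the widely expressed sterol acyltransferase, stayed at 70.2 ± 9.09 and 72.3 ± 9.75 CPM (0.04, adjusted p = 0.93, edgeR), with a 95% interval of 0.854-fold to 1.24-fold. Chchd2, which forms complexes with Chchd10, was at 47.2 ± 3.23 and 56.5 ± 8.94 CPM (0.26, adjusted p = 0.46, edgeR). Clic1 was at 302 ± 18.4 and 270 ± 13.5 CPM (-0.16, adjusted p = 0.64, edgeR). Cks2 was scarce, at 1.22 ± 0.77 and 1.85 ± 0.458 CPM (0.62, adjusted p = 0.56, edgeR). In iTreg none of the 6 relatives passed, with log2 fold changes from -0.23 (Cks2) to 0.10 (Chchd2).

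Across the 6 families (VEGF ligands and receptors, angiopoietins and angiopoietin-like factors, sterol storage and efflux, CHCHD and MICOS proteins, CLIC proteins, and CKS with SCF-SKP2 and cyclins), 45 of 62 other genes were tested. Of these 1 rose in nTreg KO, E2f1, a factor that drives S phase genes, at 8.72 ± 1.44 CPM in WT and 14.7 ± 1.23 CPM in KO (log2 fold change 0.74, SE 0.16, adjusted p = 0.032, edgeR), and 0 fell, against 2.18% and 0.341% of all genes. DESeq2 called 1 and limma voom 4, against 4.12% and 8.87% of all genes. At an unadjusted p under 0.05, 7 were higher and 2 lower, against 8.60% and 4.78% of all genes. With the replicate block 5 were called higher (Vegfb, Plin3, Chchd3, Cdkn1a and E2f1), against 5.36% of all genes. The E2f1 call was lost without nTreg WT replicate 1 or 2, without any 1 KO replicate (adjusted p from 0.079 to 0.17), without both nTreg libraries numbered 2 (0.33) and without the libraries high in Xist (0.075). In iTreg 0 of 45 passed in edgeR, DESeq2, voom or with the block, and 0 were higher and 1 lower at an unadjusted p under 0.05. The median over the 45 was 0.20 in nTreg and -0.09 in iTreg.

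**Figure D3:**
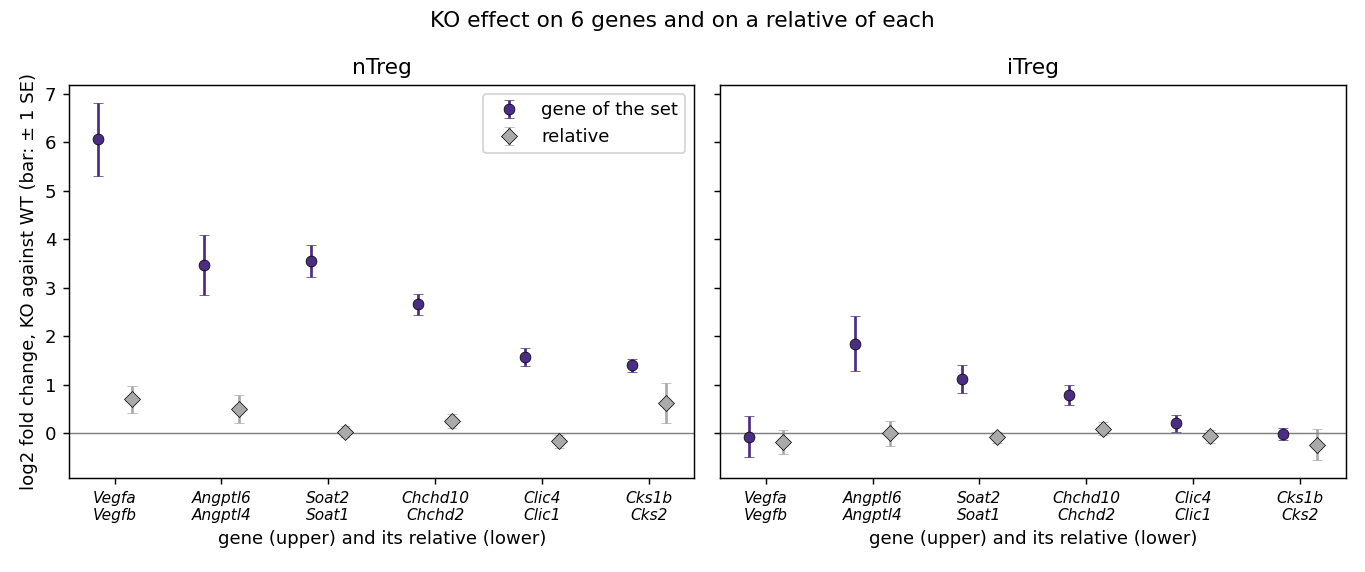
Log2 fold change of KO against WT (y axis, ± 1 SE, n = 3 libraries per group) for 6 genes of the set (circles) and a relative of each (diamonds), in nTreg (left) and iTreg (right). In nTreg the relatives lie between -0.16 (Clic1) and 0.70 (Vegfb), and that the circles lie higher there follows from how those genes were chosen.

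Receptors found on endothelium were looked up. Kdr, the main VEGF receptor of endothelium, was at 0 to 0.148 CPM over the 12 libraries, and Tek, the angiopoietin receptor, at 0 to 0.116 CPM. Levels of the other VEGF receptors of the family list (Flt1, Flt4, Nrp1 and Nrp2) are not given here. No receptor of Angptl6 was looked up. The 9 endothelial and stromal markers summed to 228 to 260 CPM in nTreg WT and 169 to 187 CPM in nTreg KO, nearly all of it Pecam1, which T cells also make, with 4 and 3 of the 9 at 0. Csf1r, the macrophage marker, was at 16, 95.3 and 30.3 CPM in nTreg WT and 8.34, 195 and 34.5 CPM in nTreg KO, and replicate 2 was the highest of each group. Lyz2, another myeloid marker, went otherwise, at 5.17, 1.42 and 3.54 CPM (WT) and 14, 3.15 and 1.51 CPM (KO). It was highest in replicate 1 of each group. The sum of the 10 myeloid markers was highest in replicate 2 of each group. Vegfa was lowest in replicate 2 among nTreg WT libraries (0.283 CPM) and highest in replicate 2 among nTreg KO libraries (39.1 CPM). Angptl6 (30.4 CPM), Soat2 (31.7), Chchd10 (201), AI662270 (262) and C630004H02Rik (34.9) were also highest in that KO library. Clic4 was highest in KO replicate 3 and Cks1b in KO replicate 1, and none of the 8 genes was highest in WT replicate 2. All 10 myeloid markers had positive nTreg log2 fold changes (median 0.78), and 0 passed in edgeR. The part of myeloid cells in these values was not tested. Without both libraries numbered 2 the nTreg log2 fold changes of the 8 genes were 5.70 (Vegfa), 3.22 (Angptl6), 3.26 (Soat2), 2.55 (Chchd10), 1.6 (Clic4), 1.35 (Cks1b), 1.41 (AI662270) and 0.94 (C630004H02Rik). The 8 B and plasma cell markers summed to 20.1 to 48.2 CPM in nTreg WT and 81.7 to 117 CPM in nTreg KO. The 1 marker called was Derl3, itself an ER stress gene, in both cell types, and the part of these cells in the results was not tested.

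Vegfa is a textbook target of HIF1, so the HIF1 targets were counted as a list that was set without these genes. Of 16 tested, 0 passed in edgeR in either cell type, against 2.18% (nTreg) and 0.166% (iTreg) of all genes higher. At an unadjusted p under 0.05, 0 were higher and 1 lower in each, against 8.60% and 3.83% of all genes higher. DESeq2 and voom called 1 each in nTreg, against 4.12% and 8.87% of all genes, and 0 in iTreg. The median log2 fold change was 0.00 in nTreg and -0.37 in iTreg. At such shares 0 of 16 says little, and a part of HIF1 in the Vegfa level was not tested. With the block, Pdk1, Ndrg1 and Hif1a passed in nTreg, 1 higher and 2 lower, and Ndrg1 was lower in iTreg. The targets of ATF4 and CHOP rose in nTreg in 18 of 24 tested genes with 0 lower, against 2.18% of all genes higher. Their median was 1.21, against 0.01 over all genes. Without both libraries numbered 2, 10 were called higher, and 5 without the libraries high in Xist. Atf5, a factor of the ATF4 family, went from 5.15 ± 1.04 to 254 ± 15.6 CPM, Trib3, a pseudokinase induced by CHOP, from 3.15 ± 1.37 to 89.6 ± 30.8, Asns, asparagine synthetase, from 2.08 ± 0.586 to 56.7 ± 11.9, and Slc7a5, an amino acid transporter, from 68.0 ± 6.60 to 369 ± 98.3 (SD, n = 3). In iTreg 1 of 24 passed, against 0.166% of all genes higher, with a median of 0.46. It was Atf5 (log2 fold change 1.48, adjusted p = 0.0068, edgeR). Its adjusted p in edgeR was 0.058 and 0.057 without iTreg WT replicate 1 or 2, and 0.37 without the libraries high in Xist. Over 16 alternatives it ran from 5.4e-10 to 0.37. With the block 6 passed, against 0.673% of all genes higher, and with DESeq2 4, against 0.822% of all genes. Without both iTreg libraries numbered 3, 3 passed.

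The targets of XBP1 and ATF6 rose in nTreg in 16 of 16 (median 1.94), against 2.18% of all genes higher. In iTreg they rose in 9 of 16 (median 0.96), against 0.166% of all genes higher, and 0 were lower in either cell type. The medians over all genes were 0.01 in nTreg and -0.013 in iTreg. In nTreg 12 passed without the libraries high in Xist. In iTreg 13 passed with the replicate block, which adds Xbp1, Pdia4, Dnajc3 and Creld2, against 0.673% of all genes higher. Herpud1, an ERAD protein, went from 84.6 ± 7.12 to 177 ± 28.2 CPM in iTreg, Pdia6, a disulfide isomerase, from 188 ± 7.91 to 545 ± 141, and Hyou1, an ER chaperone, from 165 ± 20.5 to 412 ± 95.5 (SD, n = 3). Set beside the iTreg medians of both lists, Angptl6, C630004H02Rik and Soat2 were above both, Chchd10 and AI662270 between them, and Clic4, Cks1b and Vegfa below. All 9 calls were lost with the 6 iTreg libraries alone, without those high in Xist and without iTreg WT replicate 1, as no gene passed there. For Herpud1, Pdia6 and Hyou1 the adjusted p without WT replicate 1 was 0.053, 0.053 and 0.058. Without WT replicate 2, 1 gene passed of all tested, Pdia6 (0.048).

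How libraries of one group deviate from their mean uses a spread that the choice of genes did not. The median deviation of the 8 genes was largest in iTreg KO, at 0.06, 0.27 and -0.39 on the log2 scale for replicates 1, 2 and 3. The medians of the ATF4-CHOP targets (-0.10, 0.41 and -0.29) and of the XBP1-ATF6 targets (0.09, 0.27 and -0.34) had the same high and low library, and the median of all genes was 0.00 in each. Foxp3 was at 392, 191 and 375 CPM in these libraries, lowest in replicate 2, and its part in these values was not tested. Angptl6 deviated the most, by 1.27 in replicate 2 and -1.41 in replicate 3, and Chchd10 by 0.56 and -0.44, while Cks1b, Clic4 and AI662270 stayed within 0.11 of the group mean. Over the 12 libraries the deviations of Angptl6 correlated with those of Chchd10 (r = 0.864), C630004H02Rik (0.819), Vegfa (0.764) and Soat2 (0.649). Clic4 did not share this, with r between -0.306 (Cks1b) and 0.24 (Vegfa). Nor did AI662270, with r between -0.253 (Vegfa) and 0.265 (Chchd10). Cks1b was at 0.22 with Angptl6 and at most 0.444 (Soat2). These are descriptions over libraries of which the same-numbered ones also deviate together, and they rest in large part on iTreg KO replicates 2 and 3.

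**Figure D4:**
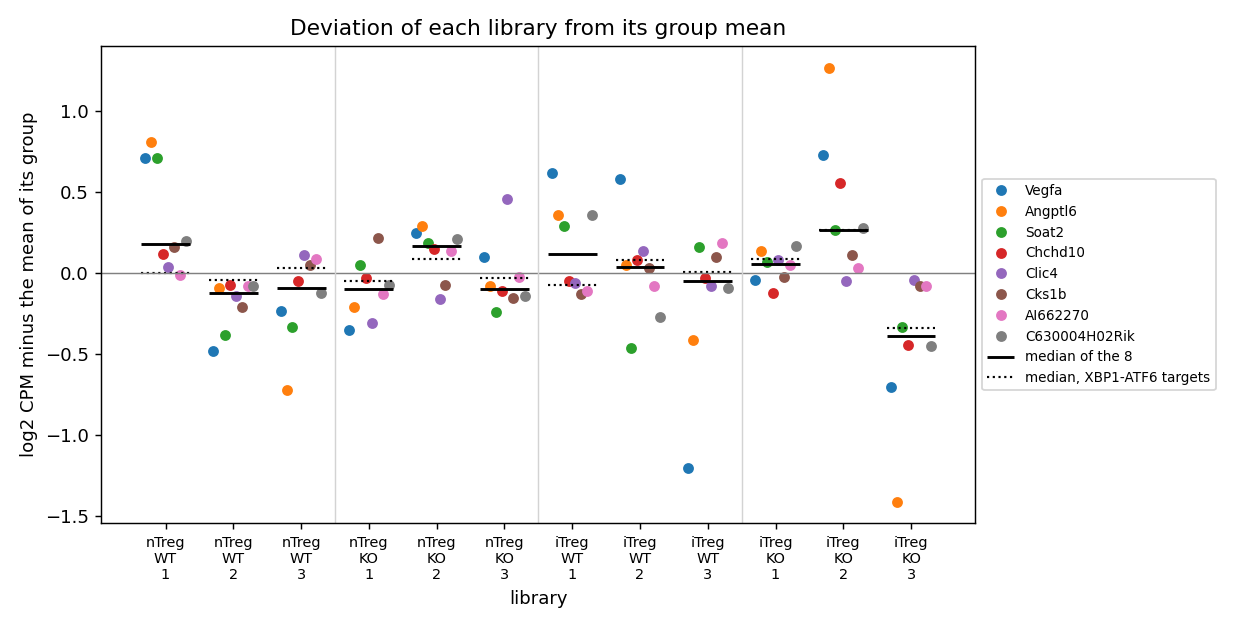
Deviation of each library (x axis) from the mean of its group (y axis, log2 CPM) for the 8 genes (points), their median (solid line) and the median of the XBP1-ATF6 targets (dotted line). iTreg KO replicate 2 lies high (median 0.27) and replicate 3 low (median -0.39), for the 8 genes and the XBP1-ATF6 targets (0.27 and -0.34).

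A correlation (r) over the 12 libraries holds the nTreg contrast that chose the members, which favours genes that differ there too. As a description only, these are the genes whose log2 CPM followed each member most closely over the 12 libraries. For Soat2 they were Snd1 (Pearson r = 0.984), Scfd1 (0.969), Sec61a1 (0.959) and Surf4 (0.957), where Sec61a1 is the channel of the ER translocon and Surf4 a cargo receptor for ER export. For Angptl6 they were Tmed3 (0.957), Mcfd2 (0.951), Pdia4 (0.951) and Ddit3 (0.947), and for C630004H02Rik 0610037L13Rik (0.952), Hspa5 (0.937), Ddit3 (0.904) and Sel1l (0.903). Hspa5 is the ER chaperone BiP, Ddit3 encodes CHOP and Sel1l is the partner of Hrd1. Chchd10 was nearest to Sdf2l1 (0.984), Sars (0.982), Ssr3 (0.980) and Slc6a9 (0.978), and AI662270 to Txndc5 (0.982), Tmem39a (0.978), Gorasp2 (0.977) and Ssr3 (0.977). Over the 6 iTreg libraries alone, these 20 pairs had r between 0.843 and 0.976. Those 6 are among the 12 libraries by which the pairs were picked, which favours high values, and no r of other genes was set beside them.

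For the remaining 3 genes part of the r values were lower over the iTreg libraries alone. Cks1b was nearest to Cd24a (r = 0.993), Cdc45 (0.991), E2f1 (0.991) and Plp2 (0.990), and Cdc45 and E2f1 belong to DNA replication and S phase entry. Over the iTreg libraries alone these fell to 0.906, 0.704, 0.443 and -0.032. Clic4 was nearest to Nupr1 (0.988), Morf4l2 (0.977), Chac1 (0.969) and Hspa9 (0.967), and Vegfa to Nupr1 (0.976), Calu (0.976), Oat (0.970) and Mars (0.968). Nupr1 is a stress-induced chromatin protein and Chac1 a target of ATF4 that degrades glutathione. In iTreg alone, r was 0.718, 0.925, 0.785 and 0.536 for Clic4 and 0.371, 0.916, 0.716 and 0.611 for Vegfa. The r over 12 libraries span 4 groups whose means differ, so the group means carry most of each value. Those over iTreg alone rest on 6 libraries of both labels. They hold the difference between the labels and the deviations of single libraries, such as iTreg KO replicates 2 and 3.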

How the data were processed

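Each library's deposited file holds unnormalised counts by gene symbol, checked to be whole numbers. Per the submitters' processing notes, cutadapt 1.13, STAR, HTSeq 0.6.1p1 and DESeq2 were used with build mm10. The role of each tool, the annotation and the strand setting are not given in the sources used here. Genes were kept by edgeR's filter (minimum count 10, minimum total 15). They were tested with edgeR 4.0.16 (R 4.3.3), robust quasi-likelihood on TMM-normalised counts, with a term per group over 12 libraries (8 residual degrees of freedom) and Benjamini-Hochberg adjustment over 12038 genes at 0.05. Log2 CPM used a prior count of 2. Intervals of 95% come from the SE of that fit and are not adjusted. On simulated counts for iTreg KO against WT, 61.0% of 200 genes changed 2-fold were recovered (11841 genes in all) and 7 of 11641 unchanged genes were called. The simulation gave every group the same mean per gene apart from these changes, and drew the libraries independently. It thus holds no difference between cell types and no joint deviation of same-numbered libraries, and its rates need not hold for these data. The sources used here name no molecular identifiers.

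The members, gene lists and motifs were chosen with earlier results of these data known. Named were the 8 members, Syvn1, 6 relatives, genomic neighbours (given where a result turns on one), up to 4 called genes of smallest p per list, and the 4 genes of highest Pearson r per member. Lists of CD8 and NK markers (13.0 to 24.8 CPM summed) and of erythroid and platelet markers (0 to 0.945 CPM) were also read. Same-numbered WT and KO libraries deviated together (r from 0.438 to 0.572 in nTreg and from 0.307 to 0.629 in iTreg), so values from a fit that adds the number within a cell type as a block (4 residual degrees of freedom) are given where they change a call. Alternatives were RLE factors, no filter, a filter of CPM 5 in 3 libraries, DESeq2 1.42.0, limma 3.58.1 voom with quality weights, the block, 1 cell type alone and each library left out. Those without the libraries numbered 2 (nTreg) or 3 (iTreg), or without the 3 high in Xist, were chosen after seeing the data. Gene models are GENCODE M21 (20915 symbols matched, 1885 by synonym, 537 not), and promoters RefSeq's of GRCm38.p6. Figures used matplotlib 3.10.9.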

Additional observations from a re-analysis of the deposited data

Results flagged for a closer look

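The KO effects in iTreg and nTreg were compared by a test of the difference itself (iTreg minus nTreg, edgeR with Benjamini-Hochberg adjustment). It was read for Syvn1, the relatives, the genomic neighbours that passed the filter and the called genes of smallest p per list. Of these genes, none of them among the 8, 5 passed. Other genes named above, such as Nupr1, Ddit3 and Derl3, were not read for it, and the share of all genes that passed is not given. The difference was -4.15 (SE 0.28, adjusted p = 4.2e-05) for Atf5, -3.75 (SE 0.51, adjusted p = 0.012) for Trib3, -1.93 (SE 0.27, adjusted p = 0.012) for Mmp11, -1.55 (SE 0.19, adjusted p = 0.012) for Xbp1 and -1.18 (SE 0.18, adjusted p = 0.017) for Herpud1. The KO effect was higher in nTreg for each, and that of Mmp11 in iTreg was -0.29, which did not pass. Mmp11, which overlaps Chchd10, was named for its position, and the other 4 for the smallest p of their list in either KO comparison, a choice that is not independent of the difference. With the replicate block these 5 passed as well, and so did Asns (-2.95, adjusted p = 0.002 against 0.091 without the block), Syvn1 (-1.09, 0.02 against 0.1), E2f1 (-0.87, 0.034 against 0.19) and Pdia6 (-0.90, 0.033 against 0.19).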

How the results depend on the processing

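In nTreg the log2 fold changes of the 8 genes kept their sign in all 16 alternatives: Vegfa 5.70 to 6.59, Angptl6 3.11 to 4.01, Soat2 3.26 to 4, Chchd10 2.55 to 2.72, Clic4 1.30 to 1.72, AI662270 1.41 to 1.59, Cks1b 1.29 to 1.5 and C630004H02Rik 0.94 to 1.2. In iTreg, AI662270 passed in 9 and C630004H02Rik in 8 of 16 (adjusted p from 2e-06 and 3.1e-05 up to 0.86). Of the 8 genes, 4 passed with DESeq2, 0 with the 6 iTreg libraries alone (5 at an unadjusted p under 0.05, edgeR), 0 without both nTreg libraries numbered 2, 0 without the libraries high in Xist (6 unadjusted), and 0 to 4 with 1 library left out. The iTreg value of Vegfa changed sign with the replicate block (0.02), without the libraries high in Xist (0.16) and with 1 library left out (-0.52 to 0.22). That of Cks1b was 0.01 without the filter and with 6 libraries alone, 0.10 without both iTreg libraries numbered 3, 0.00 without the libraries high in Xist and -0.07 to 0.04 with 1 library left out. Over all genes, 22 passed in iTreg, 99 with DESeq2, 114 with the replicate block, 0 with 6 libraries alone, 7, 75 and 0 in the 3 added settings (without nTreg libraries numbered 2, iTreg libraries numbered 3, and libraries high in Xist), and 0 to 64 with 1 left out (0 without WT replicate 1, 1 without WT replicate 2 and 64 without KO replicate 3). Where 0 passed in edgeR, 527 (6 libraries alone), 457 (without those high in Xist) and 763 (without WT replicate 1) genes had an unadjusted p under 0.05. In nTreg 304 passed, 496 with DESeq2, 1068 with voom, 1083 with the block, 1142 with 6 libraries alone, 103 without the libraries numbered 2, 71 without those high in Xist, and 167 to 216 with 1 left out. Fewer samples were fitted in several of these, and otherwise the cause was not tested. Depth limits Vegfa in nTreg WT most, where 12 reads carry the fold change.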
